A study of Mus musculus with 9 samples.

Results

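Ptar1 and 7 genes of the protein prenyltransferases (Fnta, Fntb, Pggt1b, Rabggta, Rabggtb, Chm and Chml), 8 of the 32286 genes counted, were followed in mouse mammary tumours. Ptar1 was selected because its level had been seen to be lower in both knockouts described here, so that its own difference in tumour cells is a description without a test. The other 7 were taken for their role, and the question was whether they moved with it. 168FARN cells, a line derived from a mammary tumour of the mouse, were grown as tumours in the mammary fat pad (MFP) of female BALB/c mice. Cells of all groups carried H2BMc, the transcript of a histone H2B and mCherry reporter. The 3 groups, of 3 tumours each, were WT, Kmt2c KO and Kmt2d KO, the knockouts being cells in which one or the other of a pair of histone H3 lysine methyltransferases was targeted. For each knockout, guides against the first exon were transfected together with Cas9 and the edited cells were sorted as a pool, which need not be free of unedited alleles. Tumours of a group therefore replicate the mouse and not the editing. The stromal and immune cells of the tumours belong to the host mouse and were not edited.

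Protein prenyltransferases attach a farnesyl or geranylgeranyl lipid to cysteines near the carboxyl end of small GTPases and other proteins, which holds them at membranes. Each enzyme pairs an alpha with a beta subunit. Farnesyltransferase and geranylgeranyl transferase I share the alpha subunit Fnta and differ in the beta subunit, Fntb or Pggt1b. Rab geranylgeranyl transferase is made of Rabggta and Rabggtb and acts on Rab proteins that an escort protein, Chm or Chml, presents to it. Ptar1 is an alpha subunit that pairs with Rabggtb in geranylgeranyl transferase III, whose known substrates are Ykt6 and Fbxl2.

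In the GRCm38.p6 assembly, Ptar1 (ENSMUSG00000074925) spans chr19:23687361-23732885 on the plus strand. RefSeq promoter windows were found for 6 of the 8 genes. The letters just upstream of the Ptar1 gene, chr19:23687150-23687360 on the plus strand, are shown because Ptar1 is the member whose level stood apart. Capitals mark CCGGAAGT, the core of many ETS family sites, searched on both strands.
Ptar1: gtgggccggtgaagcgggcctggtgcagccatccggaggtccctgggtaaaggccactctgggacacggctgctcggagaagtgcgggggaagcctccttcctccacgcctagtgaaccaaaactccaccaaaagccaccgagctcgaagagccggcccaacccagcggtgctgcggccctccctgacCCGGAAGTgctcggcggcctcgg
This motif was chosen after the letters had been read. It stood in 2.88% of 32851 windows of 250 bases and, among the 6 members with a window, in that of 1, Ptar1. The Ptar1 window held 26 CpG, and 9.6% of all windows held as many or more. Windows of the other members held 5 to 27, the most in a window of Rabggtb.

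The 9 libraries, made with a droplet kit that reads transcripts from the 5′ end, held 21529691 to 125617312 unique molecular identifiers (UMIs) each. The 3 WT libraries held the fewest UMIs in total but the most per kept cell. Their medians were 10471.5 to 13754 UMIs, against 2110 to 9197 in knockout libraries. The limit on mitochondrial counts removed 26.6% to 68.5% of WT barcodes, against 13.0% to 29.5% in knockout libraries. H2BMc-positive cells (at least 1 H2BMc UMI) numbered 16707, from 361 to 925 per WT tumour and 1851 to 3434 per knockout tumour. Their Krt8 level was 235 to 569 UMIs per 1000000 (CPM). Krt18, another keratin of luminal epithelium, stood at 0 to 0.46 CPM. In Kmt2c KO, Krt8 was lower than in WT by edgeR (log2 fold change -0.94, SE 0.18, adjusted p = 0.00648) and H2BMc, on which the cells were gated, was higher (0.73, SE 0.15, adjusted p = 0.0106). Kmt2c was at 48.1 to 49.1 CPM in WT and 42.0 to 57.6 CPM in Kmt2c KO tumours, and Kmt2d at 14.9 to 21.4 CPM in WT and 24.3 to 31.9 CPM in Kmt2d KO tumours. Kmt2d thus stood higher in its own knockout without overlap, although the test did not call it (log2 fold change 0.54, SE 0.15, adjusted p = 0.104), and it was called higher in Kmt2c KO (0.51, SE 0.15, adjusted p = 0.0401). Small deletions in a first exon need not lower a transcript, so these levels do not check the labels. Kmt2d KO library 2 stood apart from the others of its group, with a chi-square per degree of freedom of 174 and 158 against them, while they differed from each other by 47.6. Pairs of Kmt2c KO libraries gave 47.3 to 121 and pairs of WT libraries 19.2 to 86.2. This measure covers whole libraries before any cell filter and grows with the number of UMIs. In all, 4365 barcode sequences occurred in 2 or more libraries, and 1718 H2BMc-positive cells carried one.

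In H2BMc-positive cells, the 3 groups of tumours fell into a high and a low set for Ptar1. WT tumours 1, 2 and 3 held 51.4, 46.4 and 44.3 CPM. Kmt2c KO tumours held 13.4, 12.3 and 14.5 CPM. Kmt2d KO tumours held 12.8, 14.8 and 14.1 CPM. The lowest WT tumour lay far above the highest knockout tumour, and the knockout groups overlapped. The WT mean was 47.4 ± 3.67 CPM (SD, n = 3), that of Kmt2c KO 13.4 ± 1.08 CPM and that of Kmt2d KO 13.9 ± 1.02 CPM. On the summed UMIs, Ptar1 stood at 0.283 of the WT level in Kmt2c KO (95% counting interval 0.263 to 0.305) and at 0.297 in Kmt2d KO (0.276 to 0.319). The fitted log2 difference was -1.83 (SE 0.089) in Kmt2c KO and -1.79 (SE 0.089) in Kmt2d KO, and that between the knockouts was 0.032 (SE 0.088). These values are those Ptar1 was selected on, and both knockouts were set against the same WT tumours. Of 14089 genes tested, 137 had a fitted difference as low or lower in Kmt2c KO and 54 in Kmt2d KO.

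**Figure D1:**
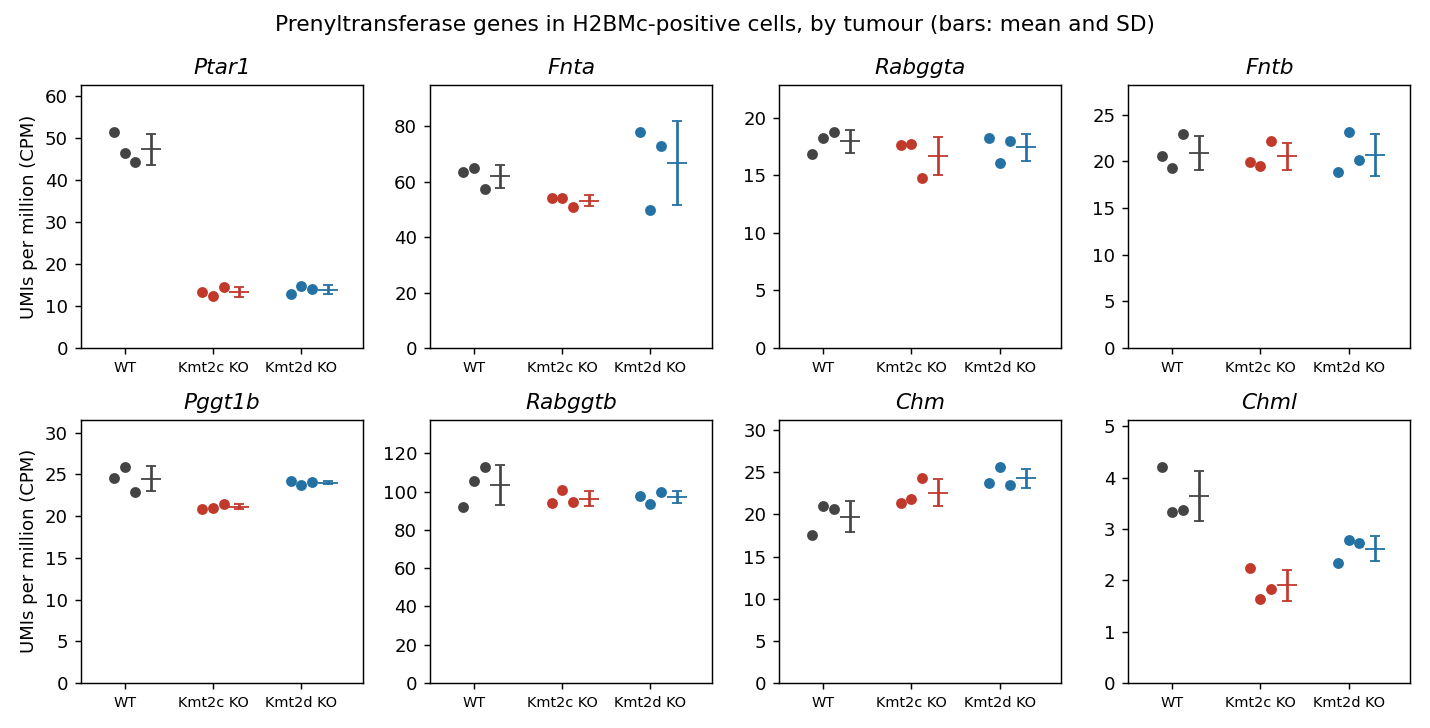
Level of the 8 genes (CPM, linear axis from 0) in H2BMc-positive cells of each tumour, with the mean and SD of each group beside the points. Ptar1 separates WT (44.3 to 51.4 CPM) from both knockouts (12.3 to 14.8 CPM), and the other panels show smaller differences.

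The same UMIs can be given per cell, which describes the values again and adds no independent support. After each cell was thinned to 3000 UMIs, a Ptar1 UMI was found in 13.0% of WT H2BMc-positive cells (223 of 1712, 95% Wilson interval 11.5 to 14.7, for counting error over pooled cells only), 4.29% of Kmt2c KO cells (340 of 7920, 3.87 to 4.76) and 4.11% of Kmt2d KO cells (253 of 6155, 3.64 to 4.64). Over single tumours, the share was 12.4% to 14.7% in WT and 3.95% to 5.05% in the knockouts. Unthinned, it was 45.2% to 57.9% in WT and 12.3% to 20.4% in knockout tumours. The median depth was 13729 to 24081 UMIs per cell in WT and 8661 to 14789 in knockout tumours. Cells with fewer UMIs than the limit were left out, which were 22 WT, 357 Kmt2c KO and 541 Kmt2d KO cells. Ptar1 was at like levels in cycling cells, which held at least 2 of 10 cell cycle markers, and in the other H2BMc-positive cells. WT tumours held 44.8 to 50.1 CPM in cycling and 43.3 to 53.3 CPM in other cells. Knockout tumours held 11.5 to 15.7 CPM in cycling and 12.1 to 14.7 CPM in other cells.

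Ptar1 did not show the same separation in the unedited cells of the same tumours. Stromal and immune cells were taken as cells with no H2BMc and no Krt8 UMI and at least 3 markers of the myeloid, lymphocyte or endothelial class, more than of any other class. There were 961 myeloid-like, 347 lymphocyte-like and 422 endothelial-like cells, and each tumour gave 102 to 446. Ptar1 was sparse there, with 2, 7 and 9 UMIs in WT tumours, 5, 14 and 11 in Kmt2c KO tumours and 5, 8 and 7 in Kmt2d KO tumours. These correspond to 3.50, 11.6 and 10.8 CPM in WT, 12.7, 11.5 and 11.8 CPM in Kmt2c KO and 7.74, 15.5 and 11.8 CPM in Kmt2d KO. All 3 groups overlapped. With 68 UMIs in all, Ptar1 did not pass the low-count filter in these cells, and the value was taken from the fit without the filter. Its log2 fold change was 0.37 (SE 0.52, 95% interval -0.64 to 1.39, edgeR adjusted p = 0.719) in Kmt2c KO and 0.35 (SE 0.55, -0.72 to 1.42, adjusted p = 0.943) in Kmt2d KO against WT. In myeloid-like cells alone, the ratio to WT was 0.883 (counting interval 0.377 to 2.23) in Kmt2c KO and 0.922 (0.324 to 2.62) in Kmt2d KO.

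Without the condition on H2BMc and Krt8, cells with these markers held Krt8 at 90.4 to 228 CPM and Ptar1 at 15.1 to 24.6 CPM in WT, 10.6 to 15.1 CPM in Kmt2c KO and 12.4 to 16.4 CPM in Kmt2d KO tumours. The part of tumour cell RNA or of doublets in the levels of the gated cells was not tested. The gated cells were also shallow, with a median of 1715 to 3638.5 UMIs against 8661 to 24081 in H2BMc-positive cells. Thinning to 3000 UMIs left out 173 of 393 WT, 642 of 902 Kmt2c KO and 233 of 435 Kmt2d KO cells as too shallow. Of the remaining gated cells, 3.18% held a Ptar1 UMI in WT (7 of 220, 1.55 to 6.42), 2.69% in Kmt2c KO (7 of 260, 1.31 to 5.45) and 3.47% in Kmt2d KO (7 of 202, 1.69 to 6.98). Single tumours gave 0 to 5 such cells. The makeup of the gated cells varied between tumours. Endothelial-like cells made up 35.6% to 48.3% of them in WT tumours, 34.0%, 8.97% and 8.89% in Kmt2c KO tumours 1, 2 and 3, and 25.7% to 42.9% in Kmt2d KO tumours.

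**Figure D2:**
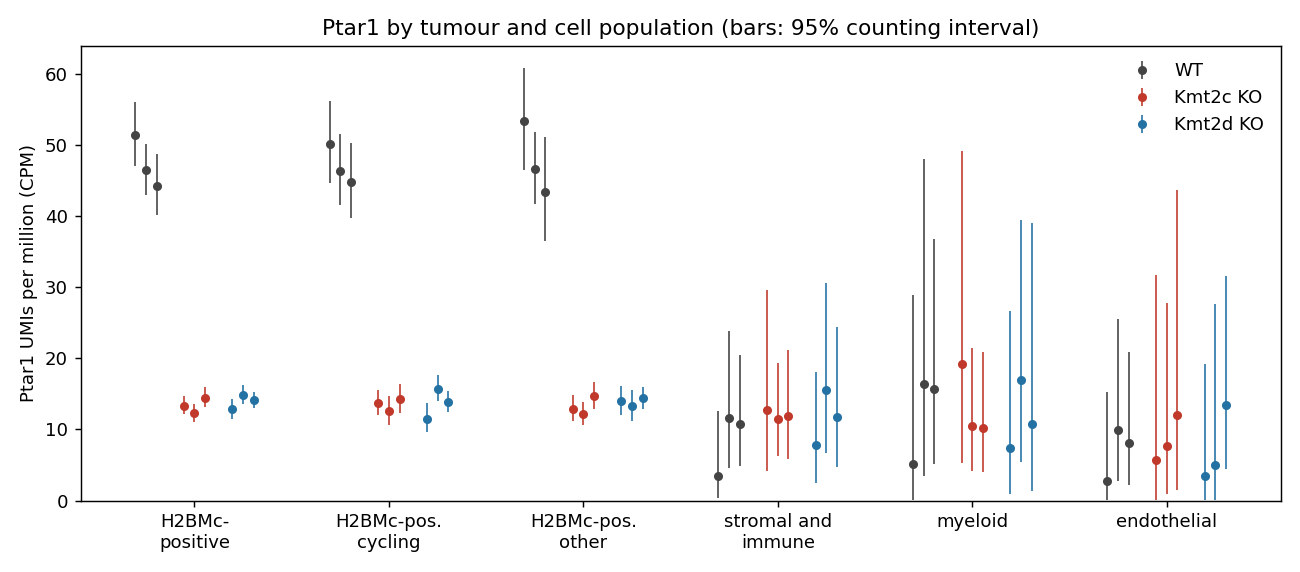
Ptar1 level (CPM) in each tumour for 6 cell populations, with bars for the 95% counting interval of each value. WT tumours stand above the knockouts in all H2BMc-positive cells, cycling or not, while in stromal and immune cells all 9 tumours lie between 3.50 and 15.5 CPM with overlapping bars.

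Over the H2BMc-positive cells and the gated stromal and immune cells, each taken whole, Ptar1 was highest in WT H2BMc-positive cells (47.4 ± 3.67 CPM). Next came H2BMc-positive cells of Kmt2d KO (13.9 ± 1.02) and Kmt2c KO tumours (13.4 ± 1.08), then the stromal and immune cells of Kmt2c KO (12.0 ± 0.608), Kmt2d KO (11.7 ± 3.90) and WT tumours (8.61 ± 4.44). From the second place on, the ranges of neighbours in this order overlapped. The difference between cell populations in the effect of the knockout, H2BMc-positive minus stromal and immune cells, was -2.14 (SE 0.45) on the log2 scale for Kmt2c KO and -2.07 (SE 0.49) for Kmt2d KO. It carries no test, because the first of its terms selected Ptar1. Ptar1 had also failed the filter in stromal and immune cells and passed here through its H2BMc-positive counts. The second term therefore rests on 68 UMIs.

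Of the 7 relatives of Ptar1, all of which passed the filter in H2BMc-positive cells, 1 was called in Kmt2c KO and 0 in Kmt2d KO against WT by edgeR at an adjusted p below 0.05. Over all genes, 18.7% were called in Kmt2c KO and 2.27% in Kmt2d KO. DESeq2 called 1 and 0 of the 7, with 20.7% and 4.99% of all genes called. An unadjusted p below 0.05 was reached by 2 of the 7 in each contrast. No share of all genes was computed at that unadjusted threshold, here or below, so such counts have no background. Between the knockouts, 0 relatives were called (1 at an unadjusted p below 0.05, 0 by DESeq2), with 0.0781% of all genes called by edgeR and 4.12% by DESeq2. The median log2 difference of the relatives was -0.10 in Kmt2c KO and -0.059 in Kmt2d KO, where that of all genes was -0.0039 and 0.0050. Without Kmt2d KO library 2, the calls over all genes rose in number from 2640 to 4140 in Kmt2c KO, from 320 to 823 in Kmt2d KO and from 11 to 2797 between the knockouts, and 1, 0 and 1 of the 7 relatives were called. Without WT library 1, 2 or 3, the calls over all genes fell to 1450, 1256 and 1368 in Kmt2c KO and to 98, 102 and 110 in Kmt2d KO.

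Fnta, the alpha subunit that farnesyltransferase and geranylgeranyl transferase I share, did not separate WT from both knockouts. WT tumours held 63.6, 64.8 and 57.3 CPM, Kmt2c KO tumours 54.2, 54.2 and 50.8, and Kmt2d KO tumours 77.8, 49.6 and 72.7. The Kmt2c KO tumours all lay below WT, and Kmt2d KO tumour 2 lay below all others while tumours 1 and 3 lay above them. The log2 fold change was -0.22 (SE 0.15, adjusted p = 0.33) in Kmt2c KO and 0.078 (SE 0.15, adjusted p = 0.844) in Kmt2d KO. Between the knockouts it was 0.30 (SE 0.15, adjusted p = 0.322). Without Kmt2d KO library 2 that difference was 0.48 with an adjusted p of 0.00277, so that the library decided this call. The share of all genes called between the knockouts rose with it, from 0.0781% to 19.7%.

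Rabggta, the alpha subunit of Rab geranylgeranyl transferase, was nearly level. WT tumours held 16.8, 18.2 and 18.7 CPM, Kmt2c KO tumours 17.6, 17.7 and 14.8, and Kmt2d KO tumours 18.2, 16.1 and 18.0. The groups overlapped throughout. Its log2 fold change was -0.10 (95% interval -0.37 to 0.16) in Kmt2c KO and -0.074 (-0.34 to 0.19) in Kmt2d KO, neither of them called.

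Rabggtb, the beta subunit that both Rab geranylgeranyl transferase and the enzyme of Ptar1 use, held 92.1, 105 and 113 CPM in WT tumours. It held 93.9, 101 and 94.5 CPM in Kmt2c KO and 97.8, 93.7 and 99.7 CPM in Kmt2d KO tumours. All 6 knockout tumours lay within the WT range. The log2 fold change was -0.10 (95% interval -0.32 to 0.11) in Kmt2c KO and -0.12 (-0.34 to 0.095) in Kmt2d KO, and neither was called.

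The beta subunits Fntb, of farnesyltransferase, and Pggt1b, of geranylgeranyl transferase I, were not called either. Fntb held 19.3 to 22.9 CPM in WT, 19.5 to 22.2 CPM in Kmt2c KO and 18.8 to 23.1 CPM in Kmt2d KO tumours, 3 ranges that coincide. Its log2 difference was -0.030 (95% interval -0.26 to 0.20) in Kmt2c KO and -0.047 (-0.28 to 0.18) in Kmt2d KO. Pggt1b held 24.6, 25.9 and 22.9 CPM in WT, 20.9, 21.0 and 21.5 in Kmt2c KO and 24.2, 23.8 and 24.1 in Kmt2d KO tumours. The Kmt2c KO tumours lay below all others, while the Kmt2d KO tumours lay within the WT range. In Kmt2c KO the Pggt1b log2 fold change was -0.22 (SE 0.082), with an unadjusted p of 0.0231 and an adjusted p of 0.0902.

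Chml, one of the escort proteins that present Rab proteins to their transferase, was the relative that fell in Kmt2c KO. WT tumours held 4.20, 3.33 and 3.37 CPM, Kmt2c KO tumours 2.23, 1.64 and 1.83, and Kmt2d KO tumours 2.33, 2.78 and 2.73. Both knockouts lay below WT without overlap. The log2 fold change was -0.93 (SE 0.19, edgeR adjusted p = 0.00914) in Kmt2c KO and -0.50 (SE 0.19, adjusted p = 0.207) in Kmt2d KO. Between the knockouts the Chml difference of 0.43 (SE 0.18) did not pass, at an adjusted p of 0.245. Chml was the least counted of the 8 genes, with 577 UMIs in all H2BMc-positive cells, and once the cells were thinned to 3000 UMIs its adjusted p in Kmt2c KO was 0.267. In the unedited stromal and immune cells, where Chml was too sparse to test, WT tumours held 4, 2 and 3 UMIs (3.30 to 7.01 CPM), Kmt2c KO tumours 1 each (0.821 to 2.53 CPM) and Kmt2d KO tumours 2, 0 and 2 (0 to 3.37 CPM). The Kmt2c KO tumours did not overlap WT in these cells, but on 3 UMIs against 9 this is not read as a fall.

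The Chml gene (chr1:175682237-175688353, minus strand) lies wholly within the span of Opn3 (chr1:175662421-175692901, minus strand), a gene for a light-sensing receptor of the opsin family. Reads from the overlap may be hard to assign to either. The mean of Opn3 was 2.06 ± 0.107 CPM for WT, 1.25 ± 0.245 for Kmt2c KO and 1.56 ± 0.302 for Kmt2d KO tumours (SD, n = 3). Its log2 fold change was -0.72 (SE 0.25, adjusted p = 0.0656) in Kmt2c KO and -0.43 (SE 0.24, adjusted p = 0.408) in Kmt2d KO. The part of Opn3 transcripts in the Chml counts was not tested.

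Chm, the other escort protein, ran the other way without passing the test. WT tumours held 17.6, 21.0 and 20.7 CPM, Kmt2c KO tumours 21.4, 21.9 and 24.4, and Kmt2d KO tumours 23.7, 25.6 and 23.5. All 6 knockout tumours lay above the highest WT tumour. The Chm log2 fold change was 0.18 (SE 0.097, adjusted p = 0.21) in Kmt2c KO and 0.26 (SE 0.097, unadjusted p = 0.0208, adjusted p = 0.204) in Kmt2d KO.

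**Figure D3:**
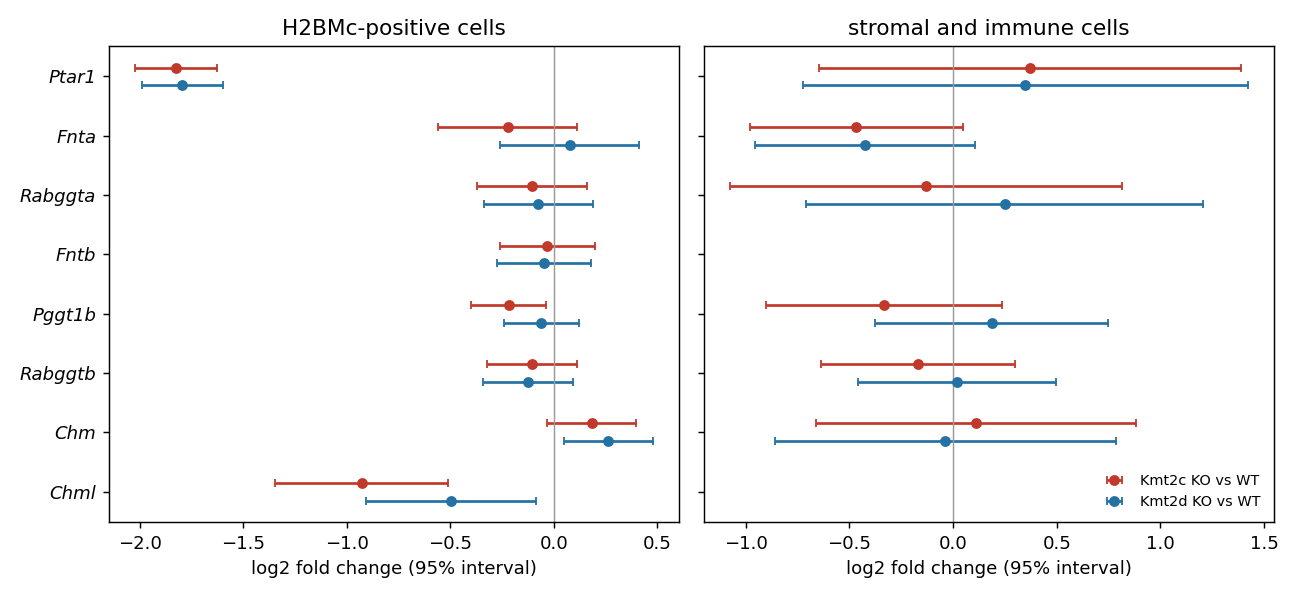
Log2 fold change against WT with its 95% interval for the 8 genes, in H2BMc-positive cells (left) and in stromal and immune cells (right). At the left, Ptar1 stands at -1.83 and -1.79, Chml lies at -0.93 and -0.50 and the other relatives lie between -0.22 and 0.26, while at the right every interval spans 0. Fntb and Chml were too sparse to test at the right, and the Ptar1 values there come from the fit without the low-count filter.

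In stromal and immune cells, 5 of the 7 relatives passed the filter, and edgeR called 0 of them in Kmt2c KO and 0 in Kmt2d KO against WT, as did DESeq2, with 0 at an unadjusted p below 0.05. Over all genes, 13.6% were called in Kmt2c KO and 0.0348% in Kmt2d KO. The Kmt2c KO share depended on single libraries, at 4.23% without Kmt2c KO library 3 and 17.7% without Kmt2c KO library 1. Between the knockouts, 0 of the 5 were called by either tool and 0.243% of all genes. Fnta stood at 47.3 to 47.9 CPM in WT, 27.9 to 43.1 CPM in Kmt2c KO and 29.4 to 45.5 CPM in Kmt2d KO tumours, and Rabggtb at 40.3 to 54.5, 38.0 to 46.2 and 43.9 to 56.3 CPM. Pggt1b stood at 38.5 to 56.1, 27.9 to 53.2 and 46.6 to 64.1 CPM in the same order. Fnta thus lay below WT without overlap in both knockouts, at log2 differences of -0.47 (SE 0.24) and -0.42 (SE 0.25), without a call. Fntb, too sparse to test, lay above WT without overlap in Kmt2c KO, at 15.4 ± 4.19 against 8.28 ± 1.28 CPM. Whether the knockout's effect differed between H2BMc-positive and host cells was tested for each relative in 1 fit with the tumour as a block, added after the values had been seen. Of the 5 relatives that passed the filter in host cells, 0 were called for Kmt2c KO, where 8.64% of all genes were, and 0 for Kmt2d KO, where 0.422% were. In Kmt2c KO their differences ranged from 0.13 (SE 0.40) for Rabggta to 0.36 (SE 0.25) for Fnta, and in Kmt2d KO from -0.24 (SE 0.40) for Rabggta to 0.61 (SE 0.26) for Fnta.

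The relatives also differed between kinds of cells. These comparisons within tumours, also added after the values had been seen, had the tumour as a block. In each genotype, stromal and immune cells held less Rabggtb and less Fnta and more Pggt1b than H2BMc-positive cells, all 3 called by edgeR. In such a comparison of cell types a call was the common outcome, with 59.6% of all genes called in WT tumours, 57.1% in those of Kmt2c KO and 57% in those of Kmt2d KO. For Pggt1b in WT tumours the level was 47.5 ± 8.80 CPM against 24.5 ± 1.49 CPM, a log2 difference of 0.90 (SE 0.20, adjusted p = 0.000676), and it was higher in the host cells of 3 of 3 tumours. Endothelial-like cells held 36.2 to 79.6 CPM of Pggt1b. For Rabggtb in WT tumours the level was 49.1 ± 7.72 CPM in host and 103 ± 10.5 CPM in H2BMc-positive cells, a log2 difference of -1.14 (SE 0.15, adjusted p = 9.76e-07). Rabggta and Chm were not called in any genotype. Fntb and Chml had failed the filter in host cells and passed here through their H2BMc-positive counts, so their values are given with no test. In WT tumours Fntb stood at 8.28 ± 1.28 CPM in host cells, on 17 UMIs in all, and 20.9 ± 1.83 CPM in H2BMc-positive cells.

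Some of the relatives differed between cycling and other tumour cells, in a comparison likewise added after the values had been seen. Cycling H2BMc-positive cells held more Fntb than the others in 9 of 9 tumours, at 24.1 ± 1.38 CPM against 17.0 ± 1.64 CPM (SD over 9 tumours). The log2 difference was 0.59 (SE 0.049, edgeR adjusted p = 5.76e-09). Chm ran the other way in 9 of 9 tumours, at 18.8 ± 2.45 CPM in cycling and 26.2 ± 2.72 CPM in other cells, with a log2 difference of -0.37 (SE 0.046, adjusted p = 9.81e-07). Rabggtb (0.12, SE 0.033, adjusted p = 0.00339) and Chml (0.47, SE 0.14, adjusted p = 0.00663) were also called, higher in cycling cells of 6 and 7 of 9 tumours. Rabggtb was nearly level in CPM, at 99.3 ± 7.86 in cycling and 97.9 ± 5.75 in other cells. Chml stood at 2.96 ± 0.697 against 2.51 ± 1.10 CPM. The fitted differences also carry a normalisation that CPM does not. The call was again the common outcome, with 74.4% of all genes. Fnta, Pggt1b and Rabggta were not called, nor was Ptar1 (0.10, SE 0.047, adjusted p = 0.0586, higher in 4 of 9 tumours).

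**Figure D4:**
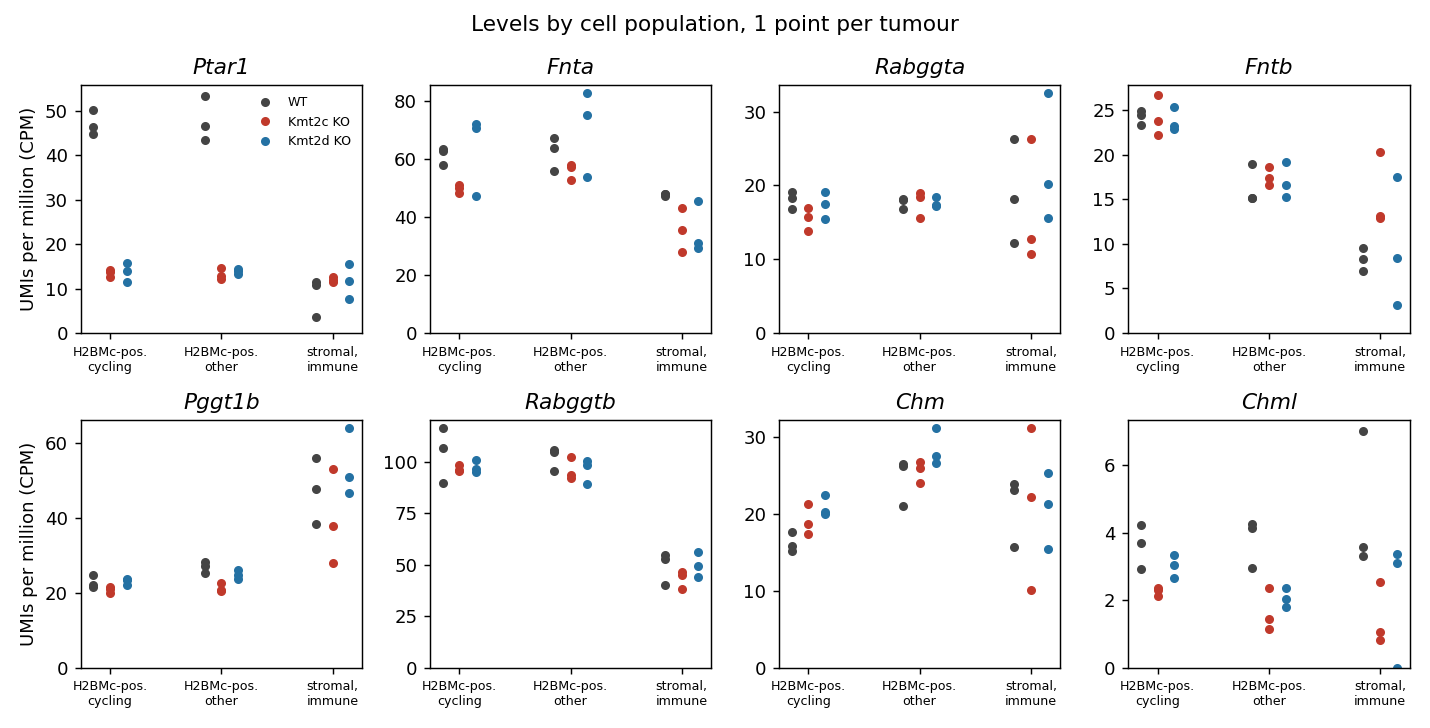
Level of the 8 genes (CPM, linear axis from 0) in cycling and other H2BMc-positive cells and in stromal and immune cells, with 1 point per tumour coloured by genotype. Fntb is higher and Chm lower in cycling cells, Pggt1b is higher and Rabggtb lower in stromal and immune cells, and Ptar1 in WT stands at 43.3 to 53.3 CPM in both kinds of H2BMc-positive cells, against 11.5 to 15.7 CPM in the knockouts.

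The wider prenylation pathway was followed through 6 lists with 98 genes, of which 96 could be tested in H2BMc-positive cells. In Kmt2c KO, 4 rose and 8 fell, or 12.5% against 18.7% of all genes. In Kmt2d KO, 0 rose and 1 fell, or 1.04% against 2.27% of all genes. DESeq2 called 14 and 3 of them, with 20.7% and 4.99% of all genes. Between the knockouts edgeR called 0, with 17 at an unadjusted p below 0.05 and 4 called by DESeq2, which called 4.12% of all genes. Both counts depended on single libraries. In Kmt2c KO it was 4 without WT library 1, 4 without WT library 2, 6 without WT library 3 and 21 without Kmt2d KO library 2. The share of all genes called in those fits moved with it, to 10.1%, 8.73%, 9.5% and 29.1%. In Kmt2d KO it was 6 without Kmt2d KO library 2, where 5.79% of all genes were called, and 0 in 16 of 20 alternatives, among them each fit without a WT or a Kmt2c KO library or without Kmt2d KO library 3. Of all genes, 0.68% to 0.764% were called without a WT library, 1.54% to 1.88% without a Kmt2c KO library and 1.21% without Kmt2d KO library 3.

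The substrates of the Ptar1 enzyme, the membrane fusion protein Ykt6 and the ubiquitin ligase subunit Fbxl2, were tested and neither was called in any contrast. The log2 difference of Ykt6 was -0.16 in Kmt2c KO and -0.13 in Kmt2d KO, and that of Fbxl2 was 0.28 and -0.027. Of 36 Rab genes, the substrates of Rab geranylgeranyl transferase, 34 were tested. In Kmt2c KO 8.82% of them were called, against 18.7% of all genes, and in Kmt2d KO 2.94%, against 2.27%. In Kmt2c KO, Rab32, which acts at lysosome-related organelles, fell by 0.54 on the log2 scale (SE 0.11, adjusted p = 0.0102). Rab1a, of transport from the endoplasmic reticulum to the Golgi, fell by 0.29 (SE 0.085, adjusted p = 0.0351). Rab5c, of early endosomes, rose by 0.36 (SE 0.077, adjusted p = 0.0113). Rab32 was also the gene that fell in Kmt2d KO, by 0.50 (SE 0.11, adjusted p = 0.0492), at 9.22 ± 0.772 CPM in WT against 6.67 ± 0.294. That call was lost in the 16 alternatives that called no pathway gene. The median over the Rab genes was -0.056 in Kmt2c KO and -0.063 in Kmt2d KO.

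Among 36 Ras proteins, related small GTPases and others with a carboxyl-terminal CaaX box, all tested, 2 rose and 2 fell in Kmt2c KO (11.1%, against 18.7% of all genes) and 0 were called in Kmt2d KO (against 2.27%). Rac2, a small GTPase best known from blood cells, rose by 1.47 (SE 0.32, adjusted p = 0.0124) from 0.692 ± 0.157 CPM to 1.94 ± 0.420 CPM. Beside it, the summed myeloid markers, all 12 of which were detected, stood at 22.7 to 36.2 CPM in WT and 31.5 to 56.8 CPM in Kmt2c KO H2BMc-positive cells. Summed lymphocyte markers stood at 0.20 to 0.416 CPM in WT and 0.440 to 2.07 CPM in Kmt2c KO, and summed endothelial markers at 21.8 to 29.8 and 34.4 to 39.6 CPM, neither overlapping, with all 12 of each list detected. The part of such cells in the Rac2 level was not tested. Rap2c rose by 0.75 (SE 0.17, adjusted p = 0.0141). Rap2b fell by 0.55 (SE 0.13, adjusted p = 0.0163) and Rras2, a Ras family GTPase, fell by 0.37 (SE 0.085, adjusted p = 0.0152).

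Of the 7 genes that process proteins after prenylation, 3 were called in Kmt2c KO and 0 in Kmt2d KO, with 18.7% and 2.27% of all genes called. Icmt, which methylates the prenylated cysteine, rose by 0.42 on the log2 scale (SE 0.11, adjusted p = 0.021), from 11.4 ± 0.694 to 15.3 ± 1.29 CPM. Zmpste24, a protease that trims CaaX proteins, fell by 0.29 (SE 0.084, adjusted p = 0.0363). Pcyox1, which breaks down prenylcysteine, fell by 0.54 (SE 0.10, adjusted p = 0.00605), from 40.2 ± 2.40 to 27.6 ± 2.05 CPM. Of the 10 genes that supply the isoprenoid lipids, 1 was called, Acat2, an enzyme that makes acetoacetyl-CoA, which fell by 0.74 (SE 0.23, adjusted p = 0.0451) in Kmt2c KO. The median of this list was -0.16 in Kmt2c KO and 0.22 in Kmt2d KO. Of the 7 carriers that hold prenylated GTPases in solution, Arhgdib, a GDP dissociation inhibitor, fell by 0.54 (SE 0.15, adjusted p = 0.0339) in Kmt2c KO.

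Genes near Ptar1 that could be tested were not called lower with it. Of the 10 protein-coding genes on each side of Ptar1 on chromosome 19, 13 could be tested. The nearest on either side were too sparse for a test. Of these, edgeR called 0 lower in either knockout. In Kmt2d KO edgeR called 0 at all, with 2.27% of all genes called, and DESeq2 called 0, with 4.99%. There, 3 had an unadjusted p below 0.05. In Kmt2c KO, 3 of the 13 rose, all upstream of Ptar1, with 18.7% of all genes called there in either direction. DESeq2 called 4, with 20.7% of all genes called, and 6 had an unadjusted p below 0.05. Distances were taken from the Ptar1 start to the lower chromosome coordinate of each gene, whatever its strand. The 3 were Klf9, a transcription factor at -546 kb (1.21, SE 0.31, adjusted p = 0.0236), the cation channel gene Trpm3 at -1550 kb (1.24, SE 0.28, adjusted p = 0.0141) and Zfand5 at -2416 kb (0.51, SE 0.12, adjusted p = 0.0172). The nearest tested gene upstream, Smc5 at -481 kb, which encodes a subunit of a chromosome maintenance complex, differed by -0.12 (SE 0.089) in Kmt2c KO.

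**Figure D5:**
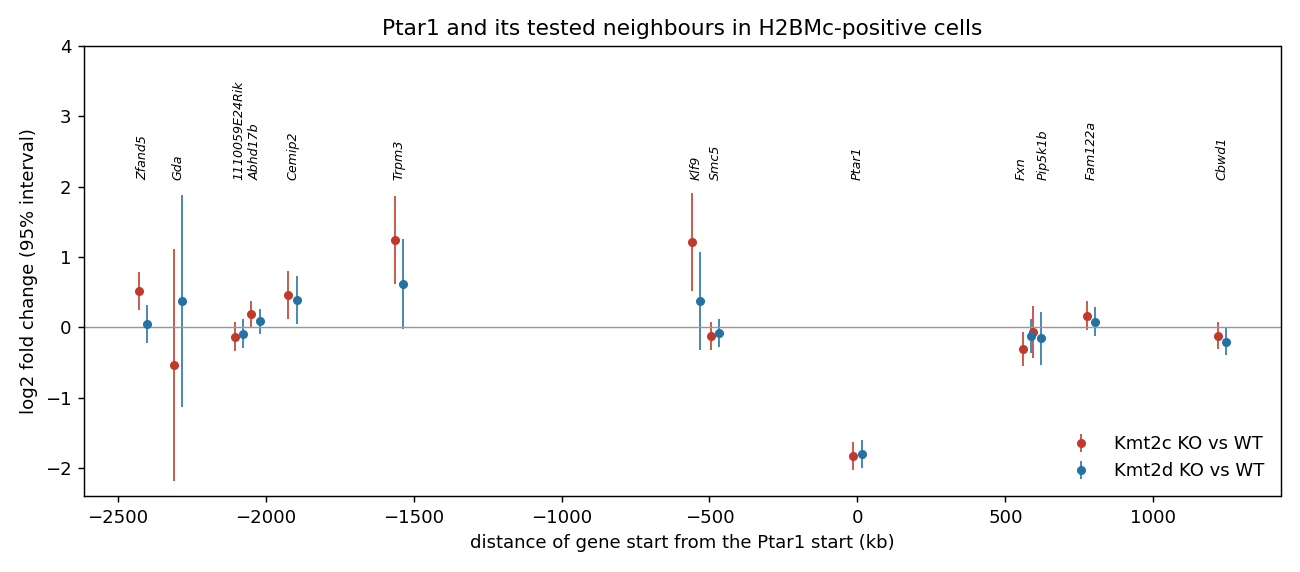
Log2 fold change against WT with its 95% interval in H2BMc-positive cells for Ptar1 and 12 of its 13 tested neighbours. Genes are placed by the distance of their lower chromosome coordinate, whatever the strand, from the Ptar1 start (kb). Ptar1 stands lowest at -1.83 and -1.79, and the neighbours drawn range from -0.54 to 1.24. The neighbour at -0.54, in Kmt2c KO, has a wide interval of -2.19 to 1.11.

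Over the 9 tumours, the genes whose level in H2BMc-positive cells ran most like that of Ptar1, by Pearson correlation of log2(CPM + 1), were Gng2 (r = 0.994), Ccn3 (0.992), Bin2 (0.986), Rnf183 (0.985) and Cox6b1 (0.983). These r values describe 9 points that fall into a WT and a knockout set and share libraries. Gng2, a G protein gamma subunit, held 5.89 ± 0.531 CPM in WT tumours, against 1.97 ± 0.166 for Kmt2c KO and 1.81 ± 0.260 for Kmt2d KO. Ccn3, a secreted matricellular protein, held 7.76 ± 0.586, 1.35 ± 0.107 and 1.65 ± 0.255 CPM. Rnf183, a ubiquitin ligase, held 8.83 ± 0.385, 4.84 ± 0.582 and 4.92 ± 0.367 CPM. Cox6b1, a subunit of cytochrome c oxidase, differed less, at 616 ± 18.6, 495 ± 14.96 and 499 ± 12.8 CPM. In each of these genes, as in Ptar1, the WT tumours lay above all 6 knockout tumours. That follows from their choice by likeness to Ptar1 over the same tumours and adds no support. With a difference of at most -1 on the log2 scale in both knockouts, Ptar1 was among 151 of the 14089 genes tested.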

How the data were processed

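Single-cell RNA of 9 tumours was measured with a 10x Genomics 5′ kit. The authors deposited 1 aggregated matrix of raw UMI counts per gene and cell, made with Cell Ranger 7.0.1 on mm10 per the submitters' processing notes. For the annotation, intronic reads and depth equalisation on aggregation, the settings were not given in the sources used here. Library names in the matrix carry a genotype letter, and the letter X was taken to mean WT because of how the study names its comparisons. Library numbers only name tumours.

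Cells with more than 500 and fewer than 7500 genes and under 15% mitochondrial counts were kept, 58645 of 89147 barcodes. Doublets were not called. Of the kept cells, 40208 were in neither H2BMc-positive nor stromal and immune cells and were not analysed here. Counts were summed per tumour and cell population, so that fewer cells of a subtype and less RNA per cell cannot be told apart. Sums were tested with edgeR 4.0.16 (quasi-likelihood, filterByExpr, TMM, all 9 tumours in 1 fit, Benjamini-Hochberg over all genes, adjusted p below 0.05), in R 4.3.3, and with DESeq2 1.42.0 as an alternative. Each SE was the absolute log2 fold change divided by the square root of its F. Fits across cell populations had the tumour as a block. CPM is not scaled for length, so no levels were compared between genes. Intervals on UMIs and shares cover counting error only, and p-values measure the spread between mice given 1 injected line per group. No share of all genes was computed for a lack of overlap between groups or for an unadjusted p below 0.05. Both are given as descriptions. Scripts were tested on simulated data with Python 3.11.15.

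The members and lists were chosen with earlier results of these data known. Named were all 8 members, up to 4 called genes per list and knockout by size of change, called genes among the 10 on each side of Ptar1, the 5 genes most correlated with Ptar1, and Kmt2c, Kmt2d, H2BMc, Krt8 and Krt18 as checks. Opn3 and the uncalled Ykt6, Fbxl2 and Smc5 were named after their values were seen. 1 gene near Ptar1 is counted but not reported here. Alternatives covered the low-count filter, normalisation, tool, samples in the fit, each left-out library, cell filters and gates, thinning to 3000 UMIs and, added after seeing the data, cells with shared barcodes.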

Additional observations from a re-analysis of the deposited data

How the results depend on the processing

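Ptar1 in H2BMc-positive cells ranged from -1.88 to -1.70 on the log2 scale in Kmt2c KO and from -1.83 to -1.71 in Kmt2d KO over 20 alternatives. Chml in Kmt2c KO stayed called in 19 of 20 and missed the threshold once cells were thinned to 3000 UMIs (-0.80), which left 0 relatives called. The small Ptar1 difference between the knockouts, which carries no test, turned to -0.11 after thinning and ranged from -0.0086 to 0.072 in the fits without 1 library. Leaving those fits aside, 32 other fold changes changed sign and 1 lost its call. The cause of each change was not tested.

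Pathway genes called in Kmt2d KO were 0 without the low-count filter, with only the 2 groups compared, without the mitochondrial limit, with at least 2 H2BMc UMIs, with a Krt8 gate, in cells with under 2 cycling markers, after thinning and without cells holding host markers or shared barcodes, and 3 by DESeq2. Of all genes, these settings called 0.603% (after thinning) to 2.25% (without cells holding host markers), and DESeq2 called 4.99%. In Kmt2c KO the pathway genes called were 7 with at least 2 H2BMc UMIs and 4 after thinning, with 17.7% and 8.93% of all genes called. Between the knockouts they were 3 without the filter, 4 by DESeq2 and 1 after thinning, with 2.22%, 4.12% and 0.526% of all genes called. Leaving out 1 library gave 4 to 21, 0 to 6 and 0 to 15, the highest without Kmt2d KO library 2, where 29.1%, 5.79% and 19.7% of all genes were called, and 0 to 1 relatives between the knockouts. Over all genes in H2BMc-positive cells, DESeq2 called 2922, 703 and 580, and the fit without the filter 2638, 516 and 521.

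In H2BMc-positive cells, small differences of the relatives changed sign as follows. Without the filter, Fntb was 0.0072 in Kmt2c KO. With a Krt8 gate, Fntb was 0.012 in Kmt2c KO and 0.0061 in Kmt2d KO. With at least 2 H2BMc UMIs, Fntb was 0.067 and 0.12, and 0.051 between the knockouts, Rabggtb was 0.014 in Kmt2c KO, and Rabggta was 0.056 and Pggt1b 6.58e-05 in Kmt2d KO. In cells with under 2 cycling markers, Fntb was 0.17 and 0.086, and Rabggta 0.057, 0.016 and, between the knockouts, -0.041. After thinning, Fntb was 0.34 and 0.21, Rabggta 0.15 and 0.21, and Rabggtb 0.054 between the knockouts. Leaving out 1 library, Fntb ranged from -0.073 to 0.063, -0.12 to 0.039 and -0.094 to 0.031, Rabggta from -0.16 to 0.0039 in Kmt2c KO and -0.077 to 0.091 between the knockouts, where Rabggtb ranged from -0.063 to 0.031, and Fnta from -0.046 to 0.26 in Kmt2d KO.

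In stromal and immune cells, where the planned filtered test gave no value for Ptar1, its log2 fold change was not called in any of 19 alternatives. Between the knockouts it turned to 0.029 with 2 class markers, 0.25 with 4 and 0.14 in myeloid and lymphocyte cells. Leaving out 1 library it ranged from 0.022 to 0.64 in Kmt2c KO, -0.0011 to 0.60 in Kmt2d KO and -0.27 to 0.19 between them. Of the relatives there, Rabggtb in Kmt2d KO turned to -0.00786 without the filter, -0.15 with 4 markers, -0.27 in endothelial cells and -0.017 with mural cells added, and to 0.32 in Kmt2c KO in myeloid and lymphocyte cells and -0.14 between the knockouts in endothelial cells. Pggt1b in Kmt2d KO was -0.11 with 2 markers, Chm in Kmt2c KO -0.027 with 4 markers and -0.00853 with mural cells added, and Fnta between the knockouts -0.13 in myeloid and lymphocyte cells. Leaving out 1 library, Rabggta ranged from -0.78 to 0.23 and -0.12 to 0.61, Chm from -0.23 to 0.28, -0.21 to 0.14 and -0.34 to 0.18, Rabggtb in Kmt2d KO from -0.12 to 0.12 and Fnta between the knockouts from -0.16 to 0.19. None of these was called.

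No paired analysis was possible because each tumour came from its own mouse and the matrix does not carry the replicate numbers of the labels. The comparisons between cell populations within tumours and the list of genes most like Ptar1 were made under 1 setting only, and the genes near Ptar1 were tested by edgeR and DESeq2 under the main settings.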

Other observations

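In stromal and immune cells, 87 of the 98 pathway genes could be tested, and edgeR called 7 of them in Kmt2c KO, 1 higher and 6 lower, and 0 in Kmt2d KO (5 at an unadjusted p below 0.05, 0 by DESeq2). Over all genes in these cells, 13.6% were called in Kmt2c KO and 0.0348% in Kmt2d KO. The Kmt2c KO share ranged from 4.23% to 17.7% in the fits without 1 library. All 7 are named here after their values were seen. Gng11, a G protein gamma subunit that carries a CaaX box, held 674 ± 102 CPM in WT and 185 ± 89.8 CPM in Kmt2c KO (SD, n = 3), a log2 fold change of -1.90 (SE 0.31, edgeR adjusted p = 0.00336). Gdi2, which keeps Rab proteins in solution, fell by 0.70 (SE 0.16, adjusted p = 0.0117), and Rab11a, of recycling endosomes, fell by 0.76 (SE 0.17, adjusted p = 0.0111). Rhoa, Rac1 and Ptp4a3 fell by 0.56, 0.59 and 1.06, and Rab34 rose by 2.81 (SE 0.64, adjusted p = 0.0132). Beside these values, endothelial-like cells made up 45.1%, 48.3% and 35.6% of the gated cells in WT tumours 1, 2 and 3 and 34.0%, 8.97% and 8.89% in Kmt2c KO tumours 1, 2 and 3. Lymphocyte-like cells made up 8.97% to 9.80% in WT tumours and 5.67%, 38.6% and 16.5% in the Kmt2c KO tumours, of which tumour 1 lay below WT. The part of this makeup in the 7 differences was not tested.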
